A study of Mus musculus with 22 samples.

Results

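Rbfox1, Rbfox2, Rbfox3, Nova1, Nova2, Elavl2, Elavl3, Elavl4, Ptbp1 and Ptbp2 encode RNA-binding proteins that shape splicing and mRNA stability in the nervous system. These 10 of the 55385 genes in the transcript tables were taken by symbol, and each level is the sum over a gene's transcripts. They were followed in ribosome-bound mRNA of 6 cell types from 6-week-old mice, with 3 libraries per type. Every group carried Rpl22 Fl/+, an allele that puts an HA tag on the ribosomal protein RPL22 once Cre recombinase has acted, so that tagged ribosomes and their mRNA can be pulled down from homogenized tissue. Gabra6-Cre marked cerebellar granule cells in the cerebellum. Rbp4-Cre marked dentate gyrus granule cells in the hippocampus and layer V cortical neurons in the cortex, so a single driver defines both groups and the dissected tissue alone separates them. Dlx6a-Cre marked inhibitory interneurons of the hippocampus, where each library pooled 2 mice. Aldh1-cre, which the study's methods give as an Aldh1l1 driver, and Tmem119-cre marked cortical astrocytes and microglia. By the line names in the methods, both glial drivers are inducible by tamoxifen and the neuronal drivers are not. The methods give tamoxifen to inducible lines, so treatment goes with the glial groups. Its effect cannot be told apart from the difference between neurons and glia. No library of unselected tissue was used here, and tagged ribosomes come from every cell in which the driver has been active. In bulk samples of this kind, fewer cells of a type and less RNA per cell cannot be told apart.

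RBFOX proteins bind the hexamer UGCAUG in introns and tend to favour an exon when bound downstream of it. RBFOX3 is also the antigen known as NeuN, a standard stain for mature neurons. NOVA proteins bind clusters of YCAY and steer exons of synaptic genes, while the neuronal ELAVL proteins, also called Hu proteins, bind AU-rich and U-rich RNA and affect both stability and splicing. PTBP1 binds pyrimidine-rich RNA and represses many neuronal exons outside neurons. A well-known target is a short exon of its own paralogue Ptbp2, whose skipping shifts the frame and sends the mRNA to nonsense-mediated decay, and PTBP2 takes over part of this role in differentiating neurons.

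Short coding exons that differ between transcripts of Rbfox1, Elavl2, Elavl4, Ptbp1 and Ptbp2 are shown first, because their inclusion is described below. Beside them stand their counterparts in Rbfox2, Rbfox3 and Elavl3, for which no inclusion was computed. Sequences are from mouse genome build GRCm38, read 5′ to 3′ on the gene's strand, with capitals for bases that are identical in all exons of the set. The first set is the 40-nt exon of Rbfox1 at chr16:7363865-7363904 (plus strand) and its counterparts in Rbfox2 at chr15:77094451-77094490 and Rbfox3 at chr11:118496351-118496390 (both minus strand), which share 30 of 40 bases.
Rbfox1 40-nt exon: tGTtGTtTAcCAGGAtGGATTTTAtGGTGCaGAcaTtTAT
Rbfox2 40-nt exon: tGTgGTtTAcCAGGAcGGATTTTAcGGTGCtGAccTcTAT
Rbfox3 40-nt exon: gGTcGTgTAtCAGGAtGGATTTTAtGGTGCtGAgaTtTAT

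The 43-nt exon of Rbfox1 at chr16:7369801-7369843 takes the place of the 40-nt exon, and no transcript used here for inclusion held both. Its counterpart in Rbfox2 lies at chr15:77091812-77091854, and 27 of 43 bases are shared. The 40-nt form is known as the brain exon and the 43-nt form as the muscle exon.
Rbfox1 43-nt exon: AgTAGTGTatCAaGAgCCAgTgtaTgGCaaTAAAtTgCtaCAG
Rbfox2 43-nt exon: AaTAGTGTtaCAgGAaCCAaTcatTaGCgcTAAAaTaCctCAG

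A 39-nt exon lies in the hinge of the Elavl genes, the linker ahead of the last RNA-recognition motif. It was found at chr4:91254141-91254179 in Elavl2, at chr9:22024674-22024712 in Elavl3 and at chr4:110209740-110209778 in Elavl4, all on the minus strand. The 3 copies share 32 of 39 bases, and the length is a multiple of 3, so skipping keeps the frame.
Elavl2 39-nt exon: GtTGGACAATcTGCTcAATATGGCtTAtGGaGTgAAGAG
Elavl3 39-nt exon: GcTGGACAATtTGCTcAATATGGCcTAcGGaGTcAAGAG
Elavl4 39-nt exon: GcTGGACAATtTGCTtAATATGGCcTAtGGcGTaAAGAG

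The 34-nt exons of Ptbp1 at chr10:79862014-79862047 (plus strand) and Ptbp2 at chr3:119724612-119724645 (minus strand) share 26 of 34 bases. Each shifts the frame when skipped, and both are known switches for decay of the mRNA.
Ptbp1 34-nt exon: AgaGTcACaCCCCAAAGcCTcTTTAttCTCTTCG
Ptbp2 34-nt exon: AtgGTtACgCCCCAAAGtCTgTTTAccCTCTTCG

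Known motif letters were searched on the gene's strand within 300 bases of each of the 10 short exons whose inclusion is given below. TTCTCT, a pyrimidine-rich hexamer of the PTBP kind, occurred at 2 places upstream of the Ptbp2 exon, and TGCATG, the RBFOX hexamer, occurred at 2 places downstream, 162 and 179 bases from the exon. TGCATG also lay 49 bases upstream and 17 bases downstream of the Rbfox1 40-nt exon, with TTCTCT 20 bases upstream of it, and TTCTCT lay 6 bases upstream of the Elavl4 exon. Over the 10 exons, TTCTCT lay upstream of 5 and downstream of 3, and TGCATG upstream of 2 and downstream of 5. The nearest flanks of the Ptbp2 exon and, downstream, of the Rbfox1 exon are printed with the hexamers in capitals, the Ptbp2 stretch at chr3:119724646-119724691 and the Rbfox1 stretch at chr16:7363905-7363927. Among 60502 internal exons of at most 100 nt in the annotation, TTCTCT lay upstream of 26.4% and downstream of 20.8%, and TGCATG upstream of 10.6% and downstream of 11.9%. A match is a description of letters and not evidence of binding.
Ptbp2 upstream flank: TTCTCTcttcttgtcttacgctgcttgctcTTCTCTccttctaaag
Rbfox1 downstream flank: gtaagtattcattaacgTGCATG

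The summed marker genes of each type were highest in its own libraries, except for layer V neurons. Estimated counts per library ran from 38270477 to 97992957, and libraries of a type correlated at r between 0.988 and 0.994 on log2 CPM over all genes tested. Summed microglial markers (Tmem119, P2ry12, Cx3cr1, Csf1r) ran from 7847 to 8425 TPM in microglia and from 0.496 to 5.65 TPM in the neuronal libraries, and summed astrocyte markers (Aldh1l1, Aqp4, Gja1, Slc1a3) from 3797 to 4008 TPM in astrocytes and from 15.01 to 39.1 TPM in neurons. Of the layer V markers, Fezf2 was highest in layer V neurons (85.5 TPM), but Etv1 was highest in cerebellar granule cells (728 TPM) and Bcl11b in dentate gyrus granule cells (159.5 TPM). The library titles give a batch number without saying what it stands for, and it follows the groups in part. Interneurons and microglia were only in batch 2. The other groups were in batch 1, with 1 replicate each repeated in batch 2. For layer V neurons the labels of the repeated replicate 1 disagree on sex, and its batch 2 library correlated with its batch 1 library (r = 0.9945) no more than with another replicate (0.9945).

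Every gene of the group differed on average between these neuronal and these glial types. By edgeR's quasi-likelihood test over 20524 genes, at a Benjamini-Hochberg adjusted p of at most 0.05, 9 of the 10 genes were higher in neurons (mean of the 4 neuronal types against the mean of the 2 glial types on the log2 scale) and Ptbp1 was lower. The fit gives each cell type its own mean, so its SEs and p-values measure the spread of libraries within types. They do not measure the spread among the 4 neuronal or the 2 glial types. Over all genes tested, 36.4% were called higher and 46.8% lower, so a call in itself is common in these data. The median log2 fold change was 2.34 over the 10 genes and -0.18 over all genes. The largest differences were those of Ptbp1 (-3.65 ± 0.05, SE, adjusted p = 1.16e-20), Elavl2 (3.501 ± 0.08, adjusted p = 2.92e-17) and Rbfox1 (3.16 ± 0.05, adjusted p = 5.58e-20), and the smallest those of Nova1 and Ptbp2, both at 1.76 with SEs of 0.05. All 10 calls held within batch 1, whose only glia are astrocytes, and within batch 2. Sizes differed there: Ptbp2 stood at 0.57 in batch 1 and 1.83 in batch 2, Elavl2 at 2.25 and 3.52, Elavl4 at 1.80 and 2.89, and in batch 1 Nova2 stood at 1.57 and Ptbp1 at -2.76.

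**Figure D1:**
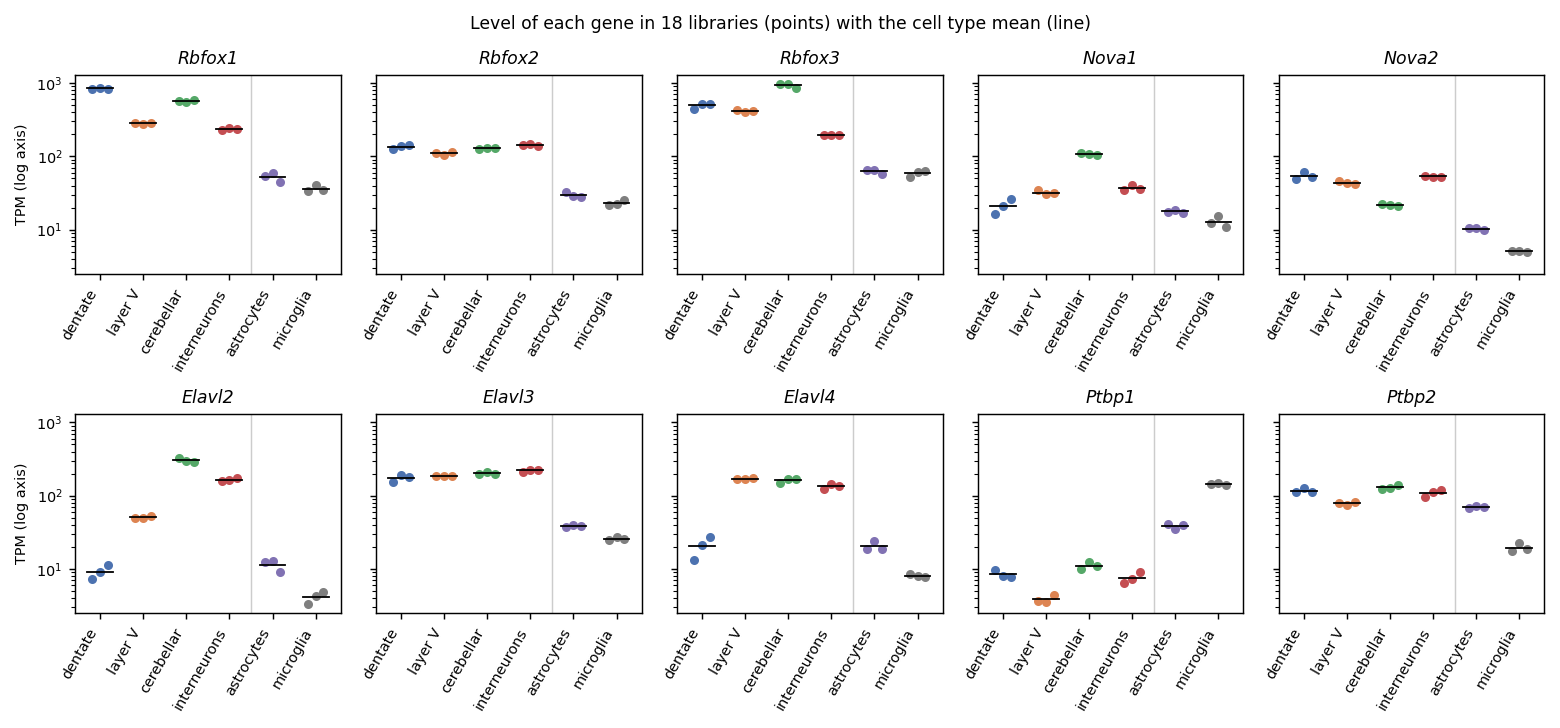
Level of each gene in TPM (log axis) in the 18 libraries, with points for libraries and a line for the mean of each cell type; the grey line parts neurons from glia. Ptbp1 runs from 3.49 TPM in a layer V library to 147 TPM in a microglial library, and the dentate gyrus points of Elavl2 and Elavl4 sit near the glial ones and below those of the other neurons.

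In levels, the 12 neuronal and 6 glial libraries did not overlap for 7 of the 10 genes. Higher in neurons without overlap were Rbfox1, Rbfox2, Rbfox3, Nova2, Elavl3 and Ptbp2, a pattern that 13.0% of all genes tested showed, and Ptbp1 was lower without overlap, as were 9.47% of all genes. For Nova1, Elavl2 and Elavl4 the overlap came from dentate gyrus granule cells.

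The neuronal types also differed among themselves. Each was compared with the mean of the other 3 in the same fit, so these comparisons share libraries. In cerebellar granule cells 7 were higher, where 34.9% of all genes were, and 2 lower, where 43% were. In dentate gyrus granule cells 2 were higher (36.5% of all genes) and 5 lower (27.6%). Layer V cortical neurons had 5 higher (35.9%) and 3 lower (31.7%), and inhibitory interneurons 3 higher (36%) and 4 lower (28.4%). Median log2 fold changes over the 10 genes were 0.85, -0.09, 0.01 and -0.04 in that order, against -0.21, 0.10, 0.04 and 0.08 over all genes. Between the glial types, 8 genes were higher in astrocytes than in microglia, where 39.8% of all genes were, and Ptbp1 alone was lower, where 36.3% were.

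**Figure D2:**
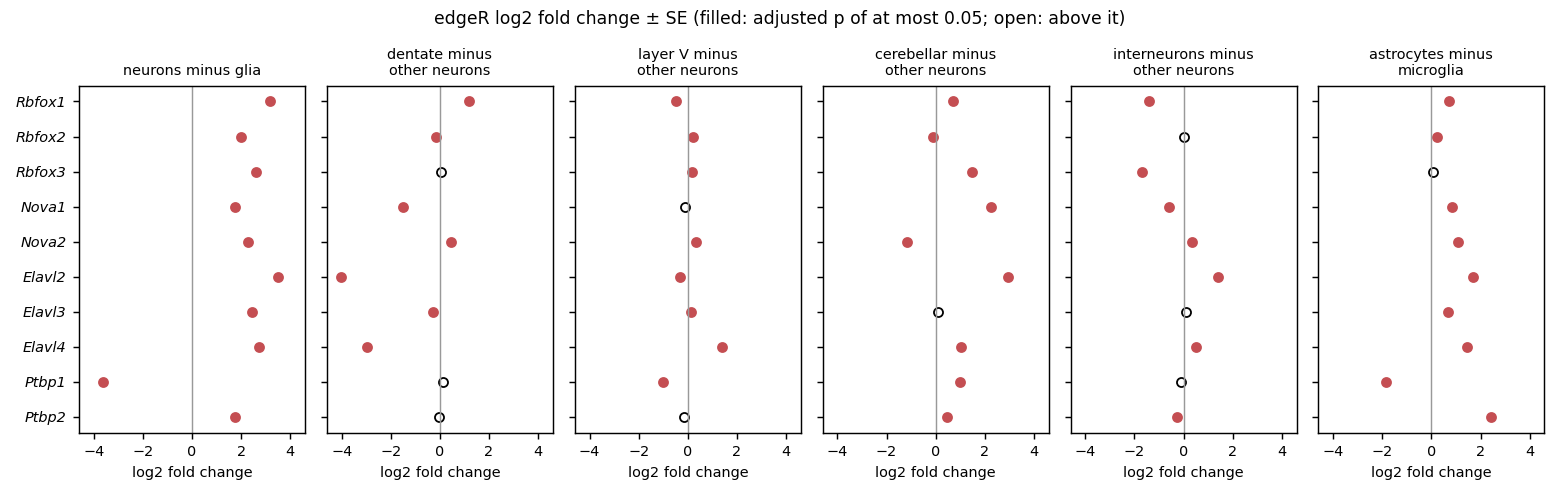
Log2 fold change of each gene by edgeR in the 6 comparisons, with SE bars that mostly lie within the markers; filled points have an adjusted p of at most 0.05 and open points do not. Elavl2 spans the widest range among neurons, from -4.03 in dentate gyrus granule cells to 2.94 in cerebellar granule cells.

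Rbfox1 (ENSMUSG00000008658.16, chr16:5885355-7411526, plus strand) stood at 837, 871 and 833 TPM in the 3 dentate gyrus libraries, 579, 556 and 582 TPM in cerebellar granule cells, 288, 274 and 289 TPM in layer V neurons, 230.2, 242 and 236 TPM in interneurons, 53.3, 59.6 and 45.3 TPM in astrocytes and 34.2, 40.1 and 35.0 TPM in microglia. No library of a type overlapped with those of the next, and the dentate mean was 23.3 times the microglial one. Against the other neurons, Rbfox1 was higher in dentate gyrus granule cells by 1.19 ± 0.05 (log2 fold change ± SE, edgeR, adjusted p = 5.12e-13) and in cerebellar granule cells by 0.71 ± 0.05, and lower in interneurons (-1.415 ± 0.06) and in layer V neurons (-0.49 ± 0.06). Within batch 1, which lacks interneurons, the layer V value was -1.08.

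Rbfox3 (ENSMUSG00000025576.17, chr11:118489762-118911597, minus strand), the NeuN gene, was led by cerebellar granule cells, with 986, 979 and 871 TPM, ahead of 448, 520.1 and 523 TPM in dentate gyrus granule cells, 433, 407 and 413 TPM in layer V neurons, 198, 198 and 193 TPM in interneurons, 65.1, 64.6 and 57.1 TPM in astrocytes and 52.1, 60.7 and 62.8 TPM in microglia. The neuronal types followed each other without overlap, while the glial types overlapped and were not called different (0.08 ± 0.07, adjusted p = 0.321 by edgeR). Its log2 fold change was 1.46 ± 0.05 in cerebellar granule cells and -1.68 ± 0.06 in interneurons, the lowest value of any member there. The layer V call (0.16 ± 0.06, adjusted p = 0.0202) turned to -0.46 within batch 1, where interneurons are absent, and the dentate value, which was not called, turned from 0.05 to -0.62.

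Rbfox2 (ENSMUSG00000033565.18, chr15:77078990-77307004, minus strand) varied least among neurons, along with Elavl3. Its libraries read 142, 146 and 138 TPM in interneurons, 125, 139 and 142 TPM in dentate gyrus granule cells, 125, 129 and 131 TPM in cerebellar granule cells, 112, 106 and 115 TPM in layer V neurons, 32.3, 28.7 and 27.9 TPM in astrocytes and 21.6, 22.5 and 25.8 TPM in microglia. The first 3 types overlapped with their neighbours in the order, and the highest neuronal mean was 1.28 times the lowest. In the count fit Rbfox2 was higher in layer V neurons than in the other neurons (0.22 ± 0.05, edgeR adjusted p = 0.000361), but on log2(TPM + 1) limma put it lower (-0.28, adjusted p = 0.000292). The direction for this gene in layer V neurons therefore rests on the scale. Its lower call in cerebellar granule cells (-0.11 ± 0.05, edgeR adjusted p = 0.0476) was lost in 16 of the 18 fits that left out 1 library.

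Nova1 (ENSMUSG00000021047.7, chr12:46694517-46818929, minus strand) was most abundant in cerebellar granule cells, where the libraries read 112, 108 and 106 TPM. It read 34.5, 40.4 and 35.5 TPM in interneurons, 34.3, 30.7 and 31.3 TPM in layer V neurons, 16.6, 21.0 and 26.4 TPM in dentate gyrus granule cells, 17.4, 18.8 and 17.1 TPM in astrocytes and 12.3, 15.3 and 10.9 TPM in microglia. The cerebellar libraries stood apart from all others, and the dentate ones overlapped with astrocytes. Nova1 was 2.24 ± 0.05 higher on the log2 scale in cerebellar granule cells (edgeR adjusted p = 2.81e-17) and 1.52 ± 0.06 lower in the dentate gyrus (log2 fold change of -1.52, adjusted p = 2.25e-13).

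Nova2 (ENSMUSG00000030411.16, chr7:18925888-18965319, plus strand), its paralogue, ran the other way in the same cells. It read 49.5, 61.1 and 52.3 TPM in dentate gyrus granule cells, 53.9, 52.9 and 53.0 TPM in interneurons, 45.7, 43.4 and 42.1 TPM in layer V neurons, 22.2, 21.98 and 20.9 TPM in cerebellar granule cells, 10.6, 10.4 and 9.88 TPM in astrocytes and 5.13, 5.04 and 5.00 TPM in microglia. The cerebellar libraries were the lowest of the neurons and still above every glial library. By edgeR, the log2 fold change was -1.16 ± 0.05 in cerebellar granule cells (adjusted p = 2.98e-13), while it was higher in dentate gyrus granule cells (0.46 ± 0.05), interneurons (0.36 ± 0.05) and layer V neurons (0.35 ± 0.05). Nova2 thus made up 16.6% ± 0.24 (SD, n = 3) of the summed Nova TPM in cerebellar granule cells and 57.7% to 71.9% on average in the other neurons.

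Elavl2 (ENSMUSG00000008489.18, chr4:91250763-91400785, minus strand), which encodes HuB, covered the widest range of the 10 genes. Its libraries read 328, 302 and 291 TPM in cerebellar granule cells, 158, 163 and 176 TPM in interneurons, 50.3, 50.1 and 52.2 TPM in layer V neurons, 12.4, 12.6 and 9.03 TPM in astrocytes, 7.20, 9.04 and 11.4 TPM in dentate gyrus granule cells and 3.29, 4.32 and 4.88 TPM in microglia. Dentate gyrus granule cells overlapped with astrocytes and lay below the other neurons by a log2 fold change of -4.03 ± 0.12 (edgeR adjusted p = 3.49e-15). The mean in cerebellar granule cells was 33.4 times that in the dentate gyrus and 73.8 times that in microglia. Elavl2 was higher in cerebellar granule cells (2.94 ± 0.08, and 3.89 within batch 1) and in interneurons (1.40 ± 0.08). The layer V call (-0.31 ± 0.09, edgeR adjusted p = 0.00609) was a small difference against a mean that holds both extremes, and within batch 1 the value was 0.17 with no call.

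Elavl4 (ENSMUSG00000028546.17, chr4:110203722-110351909, minus strand), which encodes HuD, shared the low dentate level. It read 13.2, 21.0 and 27.6 TPM there, against 166, 169 and 177 TPM in layer V neurons, 151, 167 and 169 TPM in cerebellar granule cells, 124, 144 and 137 TPM in interneurons, 18.6, 23.9 and 18.6 TPM in astrocytes and 8.58, 8.09 and 7.68 TPM in microglia. The dentate libraries spread from below to above all astrocyte ones, and the 3 other neuronal types lay close together. The dentate log2 fold change was -2.96 ± 0.14 (edgeR adjusted p = 2.19e-12), and Elavl4 was higher in layer V neurons (1.41 ± 0.11), cerebellar granule cells (1.02 ± 0.11) and interneurons (0.53 ± 0.11). The dentate libraries were also the least even: their coefficient of variation was 34.8% for Elavl4, 22.6% for Elavl2 and 23.0% for Nova1, and for all 3 genes replicate 1 was lowest and replicate 3 highest.

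Elavl3 (ENSMUSG00000003410.8, chr9:22015005-22052023, minus strand), which encodes HuC, was by contrast nearly level across neurons. Its libraries read 214, 224 and 227 TPM in interneurons, 197, 208 and 199.9 TPM in cerebellar granule cells, 184, 184 and 187 TPM in layer V neurons, 156, 193 and 179 TPM in dentate gyrus granule cells, 37.8, 39.8 and 38.8 TPM in astrocytes and 24.5, 26.9 and 25.4 TPM in microglia. The highest neuronal mean was 1.26 times the lowest, and layer V and dentate libraries overlapped. By edgeR it was lower in the dentate gyrus (-0.30 ± 0.05, adjusted p = 1.83e-05) and was not called in cerebellar granule cells (0.08 ± 0.05, adjusted p = 0.112) or interneurons (0.08 ± 0.05, adjusted p = 0.121). The layer V call (0.14 ± 0.05, adjusted p = 0.013) was lost in 4 of the 18 fits without 1 library, where the value was as low as 0.09. Since the other Elavl genes were low in the dentate gyrus, Elavl3 supplied 85.7% ± 3.23 (SD, n = 3) of the summed TPM of the 3 Elavl genes there and 30.0% to 45.5% on average in the other neurons. The dentate gyrus also had the lowest summed pan-neuronal markers among neurons (Snap25, Syt1, Syn1, Syp, Stmn2 and Nefl), from 4623 to 5476 TPM against 7903 to 14701 TPM in the other 3 types. Snap25 weighed most in this sum, with a mean of 2266 TPM in the dentate gyrus and 10653 TPM in cerebellar granule cells. Of the 6 markers, 5 were called lower in the dentate gyrus and 1 higher. Nefl had its highest mean there (634 TPM), and the lowest neuronal means of Syn1 (499 TPM, interneurons) and Syp (1036 TPM, cerebellar granule cells) lay elsewhere. The part of these markers in the Elavl and Nova1 levels was not tested.

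Ptbp1 (ENSMUSG00000006498.16, chr10:79854427-79864771, plus strand), the repressor of neuronal exons outside neurons, was the only member with its highest level in glia. It read 143, 147 and 140.2 TPM in microglia, 40.5, 35.6 and 40.0 TPM in astrocytes, 9.9996, 12.3 and 11.1 TPM in cerebellar granule cells, 9.76, 7.97 and 7.64 TPM in dentate gyrus granule cells, 6.39, 7.24 and 8.99 TPM in interneurons and 3.601, 3.49 and 4.40 TPM in layer V neurons. Every glial library lay above every neuronal one, and microglia lay above astrocytes by a mean ratio of 3.71 (log2 fold change of astrocytes over microglia -1.84 ± 0.08, edgeR adjusted p = 3.61e-13). Among neurons Ptbp1 was higher in cerebellar granule cells (0.99 ± 0.07) and lower in layer V neurons (-1.01 ± 0.08). The dentate value of 0.13 ± 0.07 was not called and turned to -0.03 without dentate replicate 1.

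Ptbp2 (ENSMUSG00000028134.11, chr3:119718742-119784466, minus strand) was expressed in every cell type, with its lowest level in microglia. Its libraries read 125, 126 and 139 TPM in cerebellar granule cells, 113, 126 and 111 TPM in dentate gyrus granule cells, 95.2, 113 and 121 TPM in interneurons, 80.4, 74.7 and 81.1 TPM in layer V neurons, 68.9, 72.5 and 71.0 TPM in astrocytes and 17.3, 22.5 and 18.6 TPM in microglia. Astrocytes stood only just below layer V neurons, with a mean ratio of 1.11 and no overlap, and 3.64 times above microglia. The difference of the glial types was the largest of any member (log2 fold change 2.43 ± 0.09, edgeR adjusted p = 1.99e-14). By edgeR, Ptbp2 was higher in cerebellar granule cells (0.46 ± 0.06) and lower in interneurons (-0.29 ± 0.07, adjusted p = 0.000934), and the layer V value was not called (-0.14 ± 0.06, adjusted p = 0.0631). On log2(TPM + 1), where its short transcript described below weighs more, limma gave -0.58 in layer V neurons (adjusted p = 3.39e-06) and 0.04 in interneurons (adjusted p = 0.661).

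**Figure D3:**
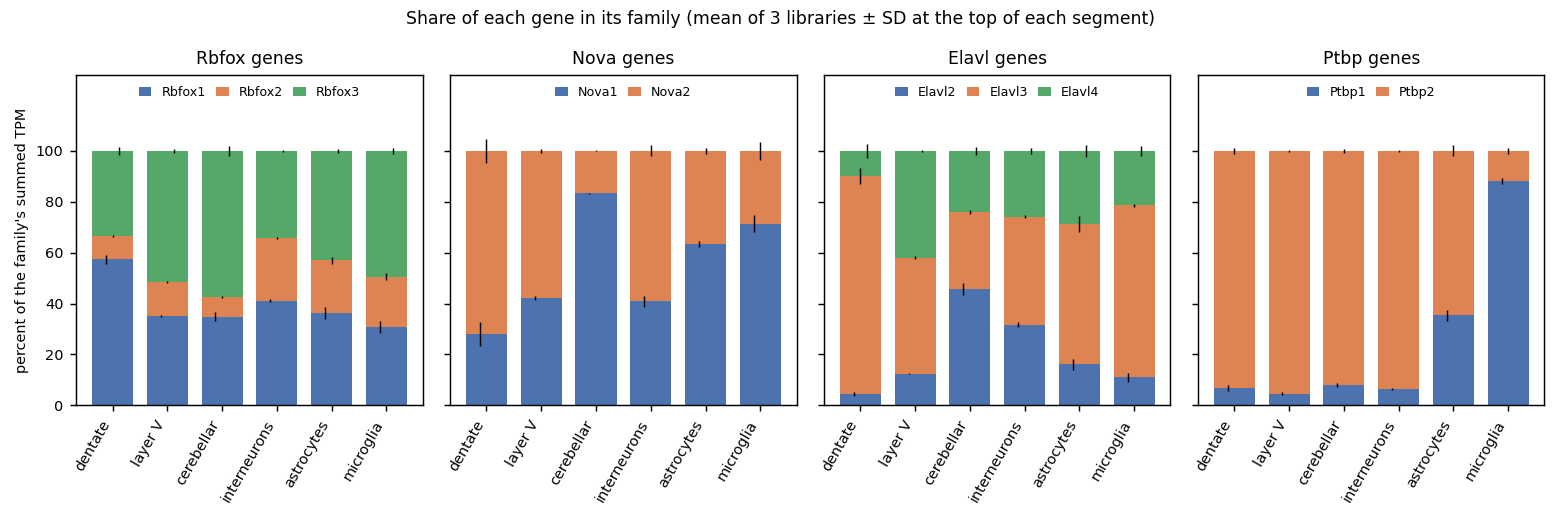
Share of each gene in the summed TPM of its family by cell type, as stacked bars of the mean of 3 libraries with an SD bar at the top of each segment. Ptbp2 fills 92.1% to 95.4% of the Ptbp bar in the neuronal types, 64.7% in astrocytes and 11.9% in microglia.

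Within each family a single share was tested. Over libraries, the balance of Ptbp1 and Ptbp2 separated neurons from glia, while the shares of Rbfox3, Nova2 and Elavl2 did not pass the test. Ptbp2 held 93.6% ± 1.38 of the summed TPM of both genes in neurons (SD, n = 12) and 38.3% ± 28.9 in glia (SD, n = 6), with an exact permutation p of 5.39e-05 over libraries (two-sided, 0.000215 adjusted over the 4 shares tested), the smallest the 18564 permutations can give. Replicates of a type are alike, and over the 6 cell type means the exact permutation p was 0.0667 (0.267 adjusted over the 4 shares). This is the smallest p that 4 types against 2 allow, so no share can pass the test at that level. The large glial SD reflects 2 distinct levels, 64.7% ± 2.12 in astrocytes and 11.9% ± 1.23 in microglia (SD, n = 3 each), while the summed TPM of Ptbp1 and Ptbp2 stayed between 82.6 TPM in layer V neurons and 163 TPM in microglia on average. For Rbfox3 the share of its family was 44.1% ± 11 in neurons and 46.3% ± 3.62 in glia (exact permutation p = 0.648 over libraries), and for Elavl2 it was 23.6% ± 16.9 and 13.5% ± 3.36 (exact permutation p = 0.167, 0.223 adjusted). Nova2 held 51.3% ± 21.8 of Nova TPM in neurons and 32.6% ± 5.02 in glia (exact permutation p = 0.0613, 0.123 adjusted over the 4 shares), and without any one cerebellar library the adjusted p was 0.0422 to 0.0435 with a difference of up to 21.9 percentage points.

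The mRNA of pan-neuronal marker genes was also measurable in the glial libraries, and its level was compared with that of the members. The summed pan-neuronal markers ran from 990.3 to 1320.3 TPM in astrocytes and from 483 to 545 TPM in microglia. As a percentage of the mean of the 4 neuronal types, the 6 markers stood at 10.1% to 16.8% in astrocytes (median 16.3%) and 3.85% to 10.6% in microglia (median 7.42%). The 9 members that were higher in neurons stood at 8.52% to 65.1% in astrocytes (median 19.8%) and 3.12% to 25.8% in microglia (median 11.7%), beside medians of 77.7% and 82.3% over all genes tested. Ptbp2 and Nova1 lay above the marker range in astrocytes, at 65.1% and 35.7%, as did Nova2 (23.8%), Rbfox2 (22.9%) and Elavl3 (19.8%). Rbfox1, Rbfox3, Elavl2 and Elavl4 stood at 8.52% to 16.6% there, no higher than the highest marker. In microglia Nova1 (25.8%), Rbfox2 (18.04%), Ptbp2 (17.9%), Elavl3 (13.1%), Nova2 (11.7%) and Rbfox3 (11.4%) lay above the highest marker, and Rbfox1, Elavl4 and Elavl2 did not. The part that mRNA of neurons in these pulldowns played in the glial levels was not tested.

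**Figure D4:**
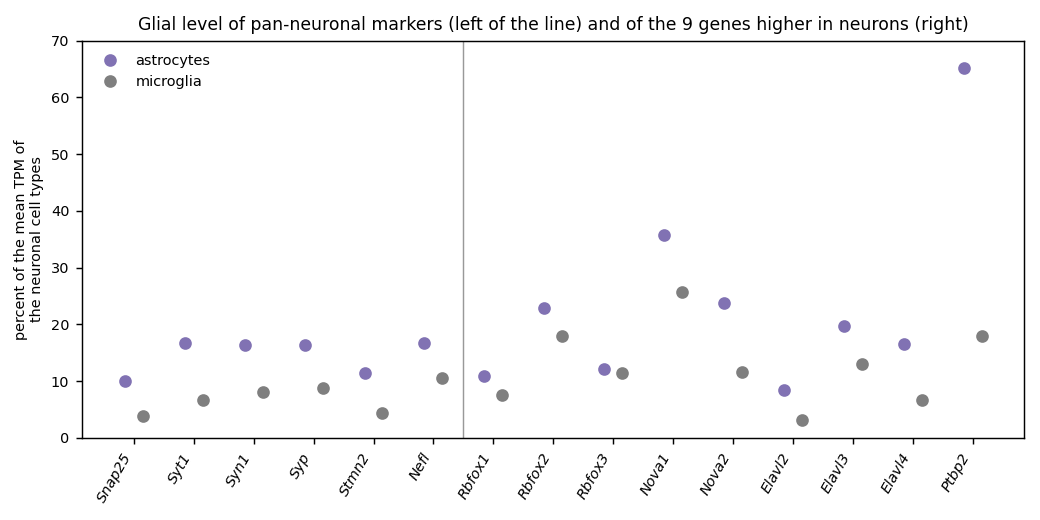
Mean TPM in astrocytes (purple) and microglia (grey) as a percentage of the mean of the neuronal types, for 6 pan-neuronal markers left of the line and the 9 genes higher in neurons right of it. Ptbp2 in astrocytes reaches 65.1%, against at most 16.8% for a marker.

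Between the glial types, the 8 genes higher in astrocytes included Elavl2 (log2 fold change 1.69 ± 0.13), Elavl4 (1.45 ± 0.15), Nova2 (1.09 ± 0.06), Nova1 (0.83 ± 0.07), Rbfox1 (0.73 ± 0.07) and Elavl3 (0.69 ± 0.06), besides Ptbp2, all at edgeR adjusted p of at most 8.06e-08. All 6 pan-neuronal markers were called higher in astrocytes as well, with a median log2 fold change of 1.25, against 0.78 over the 10 genes and 0.04 over all genes, and their part in these differences was not tested. The call of Rbfox2 (0.21 ± 0.06, edgeR adjusted p = 0.0033) rested on microglia replicate 1, without which it was 0.09 (adjusted p = 0.133). Batch 1 holds no microglia. Within batch 2, with 1 astrocyte library, the log2 fold change was -1.95 for Ptbp1 and 2.44 for Ptbp2. The other members ran from 0.11 (Rbfox3) to 1.90 (Elavl2).

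In inhibitory interneurons, the members that were lower (Rbfox3, Rbfox1, Nova1 and Ptbp2) and those that were higher (Elavl2, Elavl4 and Nova2) were measured beside a high level of oligodendrocyte genes. The call of Nova1 (-0.60 ± 0.06) was lost by limma on log2(TPM + 1), at -0.19 with an adjusted p of 0.136. Mbp, a myelin gene, averaged 1184 TPM in these libraries and 65.2 to 179 TPM in the other neuronal types, and the myelin genes Mobp (222 TPM against 12.0 to 45.2 TPM) and Mog (68.4 TPM against 1.34 to 3.35 TPM) differed likewise. Whether this moved the members' levels was not tested. Interneurons were only in batch 2, where each of the other neuronal types has 1 library. Within it, the log2 fold change was -1.73 for Rbfox3, -1.47 for Rbfox1, -0.72 for Nova1 and -0.33 for Ptbp2. It was 1.28 for Elavl2, 0.30 for Elavl4 and 0.35 for Nova2.

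The 10 genes had 100 transcripts in the index, of which 37 held at least 10% of their gene's TPM on average in some cell type. Transcript use, meaning that transcripts of a gene changed by different folds, was tested by edgeR's diffSpliceDGE at a Benjamini-Hochberg adjusted p of at most 0.05 over 12596 genes. Between neurons and glia it differed for 9 of the 10 genes, beside 66.3% of all genes tested. The calls numbered 8 between astrocytes and microglia (40.3% of all genes), 6 for cerebellar granule cells against the other neurons (40.3%) and 6 for interneurons (24.6%). Nova2 was never called, but its 2 transcripts have the same sequence in the index and were split evenly by the quantification, so the test could not see a change in it. The lowest adjusted p values between neurons and glia were those of Rbfox1 (3.15e-37) and Ptbp2 (4.4e-21, both diffSpliceDGE). The calls do not cover the error of assigning reads to transcripts. On simulated counts in which each transcript kept its own dispersion, diffSpliceDGE called more unchanged than changed genes and limma's diffSplice also went past its threshold, so that these counts and shares are too high by an unknown amount where real transcripts vary in this way. By limma's diffSplice the counts were 9, 8, 5 and 6, with Elavl4 lost (adjusted p = 0.055) and Ptbp1 gained (0.000246) between the glial types and Ptbp1 lost in cerebellar granule cells (0.123). The call of Elavl4 in interneurons (diffSpliceDGE adjusted p = 0.0123) was lost without each interneuron library in turn, and that of Rbfox2 there without interneuron replicate 3 (0.112). Between the glial types, Elavl2 lost its call without microglia replicate 2 (0.0531).

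The short exons shown above also varied in inclusion between cell types, and their part in the transcript-use calls was not tested. They were found by a rule applied after the values were known, as internal exons of at most 100 nt that some transcripts with at least 10% of the gene's TPM include and others skip, which gave 10 exons, and inclusion is the percent of TPM in including transcripts, given as a description with no test. The 34-nt exon of Ptbp2, the target of PTBP1 printed with its flank, was included in 82.6%, 83.2% and 82.6% of TPM in the layer V libraries, in 77.8% to 84.4% in cerebellar granule cells, 65.7% to 71.6% in interneurons, 64.9% to 71.5% in dentate gyrus granule cells, 58.9% to 67.5% in astrocytes and 42.3% to 53.0% in microglia. Layer V neurons, with the lowest Ptbp1 level, had the highest mean inclusion (82.8%), and microglia, with the highest Ptbp1 level, the lowest (46.6%). Across the 6 type means the order was the reverse of that of Ptbp1 TPM except for cerebellar granule cells. These ranked next to layer V neurons in inclusion but held the highest Ptbp1 level among neurons. Interneuron and dentate libraries overlapped in both measures. Whether the Ptbp1 level bore on inclusion was not tested. The main transcript that skips the exon, Ptbp2-206, is a 576-nt model annotated for nonsense-mediated decay, and being short it weighs much in TPM. By estimated counts the inclusion was 82.9% in microglia and 91.5% to 97.4% in the other types, in the same order. Ptbp2-206 held 43.3% ± 4.65 of Ptbp2 TPM in microglia and 16.9% ± 0.23 in layer V neurons (SD, n = 3), and the full-length Ptbp2-201 held 33.2% ± 1.36 and 75.4% ± 0.52.

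**Figure D5:**
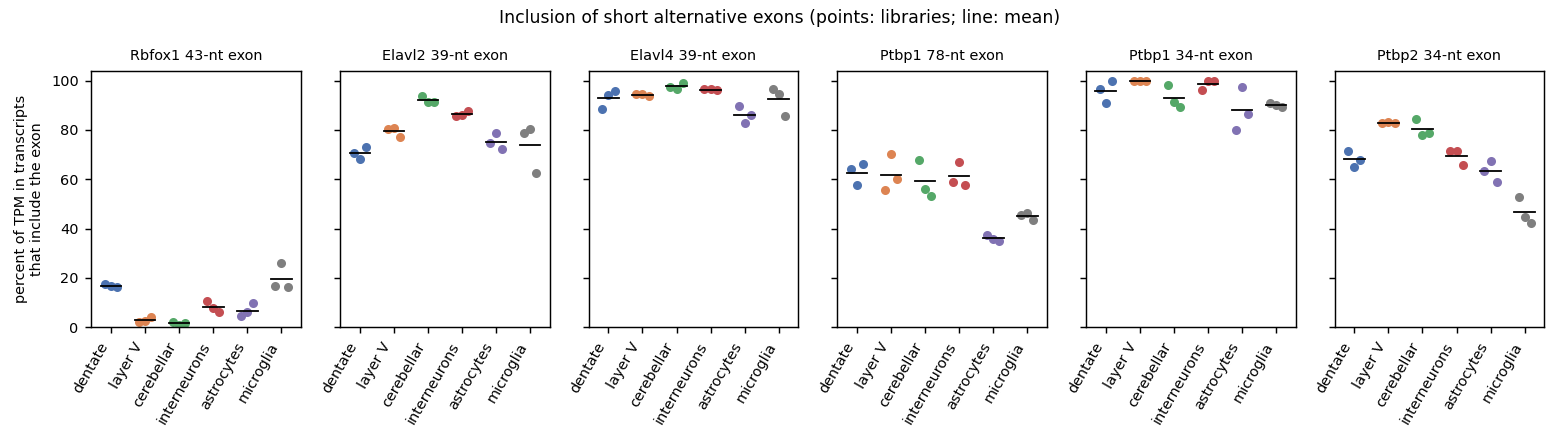
Percent of TPM in transcripts that include a short alternative exon, by cell type, with points for libraries and a line for the mean. The Ptbp2 exon runs from 42.3% in a microglial library to 84.4% in a cerebellar one, and the Ptbp1 78-nt exon separates all neuronal from all glial libraries.

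Transcript use of Ptbp1 itself differed between neurons and glia (diffSpliceDGE adjusted p = 9.86e-08) and was not called between the glial types (0.659). A 78-nt exon at chr10:79860117-79860194, which encodes part of the linker between the RNA-binding domains, was included in 59.1% to 62.6% of TPM on average in the neuronal types, in 36.0% ± 1.37 in astrocytes and in 45.0% ± 1.48 in microglia (SD, n = 3 each). No neuronal library was below 53.2% and no glial one above 46.2%, although the neuronal values rest on as few as 282 estimated counts per library against at least 3694 in the glial libraries. The 34-nt exon, whose loss leads to decay, was included in 100% of TPM in each layer V library and in 88.0% ± 8.82 in astrocytes and 90.1% ± 0.77 in microglia, with 92.9% to 98.7% on average in the other types. Astrocyte libraries were spread from 80.1% to 97.5% for this exon, and so overlapped with every type except layer V neurons.

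Rbfox1 used the 43-nt exon most in dentate gyrus granule cells and microglia. Its share of TPM was 17.6%, 16.8% and 16.2% in the dentate libraries, 16.8%, 26.2% and 16.2% in microglia, 6.25% to 10.5% in interneurons, 4.66% to 9.69% in astrocytes, 2.13% to 4.17% in layer V neurons and 1.09% to 2.15% in cerebellar granule cells. The dentate libraries did not overlap with those of any other neuronal type. By estimated counts the dentate mean was 9.41% and the microglial 8.68%, with 0.392% to 2.97% in the other types. In the dentate gyrus most of it came from the coding transcript Rbfox1-203, which held 14.9% ± 0.66 of Rbfox1 TPM there (SD, n = 3), 10.6% ± 1.5 in microglia and 0.37% to 3.99% elsewhere. A further coding transcript, Rbfox1-205, held 18.2% ± 1.415 in interneurons and 3.24% to 9.37% in the other types.

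For the Elavl genes, the 39-nt hinge exon was included most in cerebellar granule cells, where Elavl2 was also highest. In Elavl2 the share was 92.1% ± 1.46 in cerebellar granule cells, 86.6% ± 1.09 in interneurons, 79.4% ± 2.03 in layer V neurons, 75.3% ± 3.34 in astrocytes, 73.8% ± 9.92 in microglia and 70.6% ± 2.29 in dentate gyrus granule cells (SD, n = 3). The first 3 types did not overlap with each other. The microglial values rest on as few as 180 estimated counts. In Elavl4 inclusion was 92.3% to 97.6% on average outside astrocytes, where it was 86.2% ± 3.496. Elavl3 had a single transcript above 10% of its TPM, Elavl3-201, at 90.1% to 96.7% in every type, and so no alternative form of the exon among the transcripts named. In microglia 27.5% ± 4.13 of Elavl2 TPM lay in Elavl2-210, a retained-intron model, against at most 6.29% on average in the other types, at a level of 1.15 TPM. Elavl2-202 held 21.2% ± 5.01 in layer V neurons and 0.289% ± 0.28 in cerebellar granule cells.

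Exons of the remaining genes moved less or lie outside the coding sequence. A noncoding 40-nt exon of Rbfox3 at chr11:118610159-118610198 was included in 64.1% to 68.4% of TPM on average in all 6 types. A noncoding 65-nt exon of Nova1 was included in 7.32% of TPM in cerebellar granule cells and up to 31.7% in astrocytes, but it belongs to a 571-nt model and made up at most 2.46% by counts. In Elavl2, a noncoding 91-nt exon ranged from 33.8% in layer V neurons to 66.4% in astrocytes.

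Of 28 other splicing and RNA-binding regulators listed beside the members, 26 passed the low-count filter, and 15 were higher in neurons, 10 lower and 1 not called by edgeR, with a median log2 fold change of 0.72. The 4 with the largest rise in neurons were Srrm4, which drives neuronal microexons (log2 fold change 2.78 ± 0.06), Khdrbs2 (2.68 ± 0.07), Celf4 (2.64 ± 0.04) and Celf6 (2.34 ± 0.06). Lowest were Qk, a regulator known from glia (-3.70 ± 0.04), Rbm38 (-2.84 ± 0.08), Raver2, a partner of PTBP1 (-1.40 ± 0.08), and Msi1, known from progenitors and astrocytes (-1.11 ± 0.04), all 8 at edgeR adjusted p of at most 5.44e-12. Qk read 375 ± 18.3 TPM (SD, n = 3) in astrocytes and 175 ± 11.7 TPM in microglia. Rbm38, Raver2 and Msi1 rested mainly on a single glial type. Raver2 averaged 28.3 TPM in astrocytes but 1.89 TPM in microglia, below the dentate gyrus (7.09 TPM) and layer V neurons (8.975 TPM). Msi1 averaged 110.7 TPM in astrocytes but 5.69 TPM in microglia, below every neuronal type. Rbm38 averaged 21.6 TPM in microglia but 4.84 TPM in astrocytes, close to the dentate gyrus (3.76 TPM). Over all genes the shares were 36.4% higher and 46.8% lower. The same list had 16 higher and 6 lower in dentate gyrus granule cells (36.5% and 27.6% of all genes), 8 and 13 in layer V neurons (35.9% and 31.7%), 15 and 10 in cerebellar granule cells (34.9% and 43%), 5 and 21 in interneurons (36% and 28.4%), and 9 and 13 in astrocytes against microglia (39.8% and 36.3%).

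For each member, the genes with the most similar level across the 18 libraries were named by Pearson's r of log2 CPM, as a description. The libraries fall into 6 types, so a high r mostly reflects similar type means. Rbfox1 was closest to Jph3 (r = 0.996) and Cplx2 (0.992), Rbfox2 to the NMDA receptor subunit gene Grin1 (0.998), and Rbfox3 to Lsm14b (0.995) and Mbnl2 (0.993), itself a splicing regulator. Nova1 was closest to Dipk2a (0.995), Nova2 to Pgrmc1 (0.995), Elavl2 to the AMPA receptor subunit gene Gria4 (0.989) and the sodium channel gene Scn1a (0.985), Elavl3 to Tceal5 (0.997) and Elavl4 to Pcnp (0.992). Gria4 read 11.8 TPM in dentate gyrus granule cells and 195 TPM in cerebellar granule cells on average, the same low and high ends among neurons as Elavl2. Ptbp1 was closest to Mob1a (0.997), and Ptbp2 to Cntn1 (0.995) and Negr1 (0.994), both of which encode neuronal adhesion molecules. The remaining genes of the 3 nearest to each member had r of 0.984 to 0.996.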

How the data were processed

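Ribosome-bound mRNA of 6 mouse brain cell types was sequenced in 22 libraries, 3 biological replicates per type, 4 of them sequenced again in a second batch. The authors trimmed reads with cutadapt 3.5, quantified them with kallisto 0.46.2 against GENCODE M24 transcripts (GRCm38), and deposited estimated counts, which are not normalized, and TPM, which are scaled per transcript length and library; read strand settings are not given in the sources used here. The authors' sleuth test was not run.

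Here both values were summed per gene over 142552 transcripts, and counts were rounded. Replicates with a library in both batches were represented by batch 1 alone. All 6 types were tested in 1 fit by edgeR 4.0.16 (quasi-likelihood, TMM, filterByExpr), and transcript use by diffSpliceDGE on transcripts that reached 10 counts in 3 or more libraries, with Benjamini-Hochberg adjustment over all genes tested. Alternatives were DESeq2 1.42.0, limma 3.58.1 on log2(TPM + 1) or by diffSplice, no filter, a filter at 50 counts, batch 2 libraries, each batch alone, batch as a covariate, the replicate number as a block, shares by counts or by coding transcripts, and leaving out each library. R 4.3.3, Python 3.11.15, pandas 2.3.3 and numpy 2.4.6 were used. The tests were checked on simulated counts, where the gene-level test stayed near its threshold and both transcript-use tests went past it, diffSpliceDGE more so, when transcripts kept their own dispersion.

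Exons, their sequences and flanks were read from GRCm38 with the GENCODE M21 annotation, in which all 100 transcripts of the members have the same identifier and length. Named were all 10 members with transcripts of at least 10% of TPM, the 3 genes nearest to each by r, and the 4 other regulators with the largest fold change each way. Members and lists were chosen with earlier results of these data known. The labels number the replicates without naming animals, so p-values measure the spread between these samples, and depth limits the low shares of transcripts with few counts. Some listed genes are not reported here.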

Additional observations from a re-analysis of the deposited data

How the results depend on the processing

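Between neurons and glia, all 10 calls kept their direction and side of the threshold under every alternative run, as did the share of Ptbp2 tested over libraries. Among neurons, differences under about 0.3 on the log2 scale often did not, nor did Nova1 in interneurons by limma on log2(TPM + 1). In the main fit, 64.2% of all genes were called either way in the dentate gyrus and 67.6% in layer V neurons. The shares were 77.9% in cerebellar granule cells and 64.4% in interneurons. On log2(TPM + 1), limma called 4 members higher in the dentate gyrus (61.9% of all genes called either way). In layer V neurons it called 2 higher and 6 lower (66.4%). It called 1 lower in cerebellar granule cells (75%), and 5 higher and 2 lower in interneurons (61.6%). It turned Rbfox2 (0.0926) and Ptbp2 (0.16) in the dentate gyrus, Rbfox2 (-0.28), Rbfox3 (-0.11) and Elavl3 (-0.10) in layer V neurons, Rbfox2 in cerebellar granule cells (0.000959), and Ptbp1 (0.04995) and Ptbp2 (0.0419) in interneurons. This scale moved the median of all genes from -0.18 to 0.05 between neurons and glia and from 0.04 to -0.11 in layer V neurons. In batch 1 alone, 7 members were lower in the dentate gyrus (Ptbp2 gained at -0.19), where 68.4% of all genes were called either way. In layer V neurons 5 were lower (74%), and in cerebellar granule cells 1 was (80.6%). Rbfox3 stood at -0.62 in the dentate gyrus and -0.46 in layer V neurons, and Elavl2 at 0.17 in layer V neurons. Batch 2 alone leaves 1 library each of the dentate gyrus, layer V neurons and cerebellar granule cells. There Rbfox2 was -0.12 in the dentate gyrus, 0.16 in layer V neurons and -0.00549 in cerebellar granule cells. In interneurons it was -0.0320. With all 22 libraries and batch as a covariate, 5 members were lower in layer V neurons (70.2% of all genes called either way). In cerebellar granule cells 1 was lower (80%), and Rbfox2 in interneurons was -0.0288. DESeq2, no filter and batch 2 libraries in place of batch 1 also gave 1 lower in cerebellar granule cells (Rbfox2 lost). They called 61.6%, 44.6% and 77.8% of all genes there, in that order. No filter put Rbfox3 in the dentate gyrus at -0.00899. The cause of these changes was not tested.

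With the replicate number as a block, 1 member was lower in cerebellar granule cells in place of 2 (Rbfox2, -0.11, edgeR adjusted p = 0.0511), and no other call of a member changed. Of all genes, 77.5% were called either way in cerebellar granule cells. The numbers do not pair the libraries: deviations of same-numbered libraries correlated at -0.0999 to 0.109.

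Leaving out each library in turn gave 3 to 5 members higher and 3 to 5 lower in layer V neurons, 7 to 8 higher and 1 to 2 lower in cerebellar granule cells, 3 to 4 higher in interneurons, 7 to 8 higher in astrocytes, 7 to 8 called for transcript use between the glial types and 5 to 7 in interneurons; the Nova2 share difference ran from 16.6 to 21.9 percentage points. Of all genes, 61.1% to 66.5% were called either way at the gene level in layer V neurons and 72.5% to 77% in cerebellar granule cells. The shares were 57.7% to 63.4% in interneurons and 71.5% to 75.3% between the glial types. Elavl3 in cerebellar granule cells gained a call in 13 of 18 such fits (up to 0.16), Nova1 in layer V neurons in 12 (-0.17 to -0.08) and Ptbp2 there in 10 (-0.19 to -0.11), while Rbfox3 there lost it in 6 (down to 0.12). Elavl3 in interneurons was called without dentate replicate 2 (0.10). Values without a call that turned sign ran from -0.0330 (without dentate replicate 1) to 0.162 for Ptbp1 and from -0.122 to 0.00417 (without replicate 3) for Ptbp2 in the dentate gyrus, from -0.00531 (without interneuron replicate 1) to 0.0799 for Rbfox2 in interneurons, and from -0.0667 (without microglia replicate 1) to 0.170 for Rbfox3 between the glial types, where it was also negative without astrocyte replicate 2. Transcript use changed calls for Nova1 between the glial types with at least 50 counts (diffSpliceDGE adjusted p = 0.959), for Ptbp1 in interneurons with batch 2 libraries (0.00136) or all 22 (0.00363), for Elavl4 there with all 22 (0.387), and for Ptbp2 there without dentate replicate 3, layer V replicate 2 or interneuron replicate 3 (0.0254 to 0.0378).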
